A study of Homo sapiens with 4 samples.

Results

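Translation elongation was followed through 8 genes of the count table: the elongation factors EEF1A1, EEF1A2, EEF1B2, EEF1D, EEF1G and EEF2, their partner TPT1, and EEF1A1P5, a copy of EEF1A1. They were taken by name out of 60606 genes in the table, and each name matched 1 row. RNA was measured in 2 libraries of LNCaP-DaroR cells with control siRNA (siControl) and in 2 with siRNA against the lncRNA LOC730101 (siLOC730101). LNCaP is a human prostate cancer cell line. DaroR is a single line made from it by long culture in rising concentrations of darolutamide, an antiandrogen, and it was kept in the drug, so that all 4 libraries share the resistant background. The siRNA against LOC730101 was a commercial pool. The set was chosen by function, with the fold changes of this same comparison known, and EEF1A1P5 was chosen by its lower counts after siLOC730101, so the values of the 8 genes are a description and carry no p-value.

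During translation, eEF1A carries each aminoacyl-tRNA to the ribosome with GTP, and eEF2 moves the ribosome along the mRNA by 1 codon at a time. The eEF1B complex, made of the products of EEF1B2, EEF1D and EEF1G, recharges eEF1A with GTP. EEF1A1 is the form of eEF1A made in most cells, while EEF1A2 is best known from muscle and neurons. A processed pseudogene such as EEF1A1P5 is an intronless copy of an mRNA inserted elsewhere in the genome. Many mRNAs of the translation machinery begin with a run of pyrimidines, the 5′ terminal oligopyrimidine (TOP) motif, which links their translation to growth signals.

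The sequences of EEF1A1 and its copies bear on which reads can be told apart, so they are shown first. EEF1A1P5 spans 133019486 to 133020874 on chromosome 9 of GRCh38, on the plus strand, as a single exon of 1389 bases outside the span of other genes. It lies 27.8 kb from GFI1B and 7.27 kb from ENSG00000288989. In the GENCODE transcripts of GRCh37, EEF1A1P5 aligned with EEF1A1 over its whole length, from the start codon on, with 1385 identical bases (99.7%), 4 mismatches and 0 gaps. The mismatches were T294C, T720C, T933G and C1094T, where the base of EEF1A1 comes first and positions are counted from the A of the start codon. Of these, 3 lie at the third base of a codon and C1094T at the second. The windows around them, with the differing base in capitals, were as follows.

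EEF1A1 around 294: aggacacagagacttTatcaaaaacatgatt
EEF1A1P5 around 294: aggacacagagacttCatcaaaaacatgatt
EEF1A1 around 720: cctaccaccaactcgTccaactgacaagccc
EEF1A1P5 around 720: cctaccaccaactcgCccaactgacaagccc
EEF1A1 around 933: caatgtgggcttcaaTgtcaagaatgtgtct
EEF1A1P5 around 933: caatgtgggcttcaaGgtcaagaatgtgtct
EEF1A1 around 1094: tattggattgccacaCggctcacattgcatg
EEF1A1P5 around 1094: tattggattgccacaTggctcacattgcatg

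Against the spliced EEF1A1 transcript, a read from within EEF1A1P5 differs only if it covers at least 1 of these 4 bases. In the genome, the exon junctions of EEF1A1 and the bases flanking EEF1A1P5 can also tell reads apart, and these were not compared. Of the 1290 windows of 100 bases in EEF1A1P5, 890 (69.0%) occur without a mismatch in the EEF1A1 transcript, as do 1140 of its 1340 windows of 50 bases (85.1%). EEF1A2, the paralogue with its own function, aligned with 78.4% identity and shared 0 of 1674 windows of 100 bases with EEF1A1. The counts of EEF1A1 and EEF1A1P5 are therefore uncertain. How reads that match both places were treated before counting is not given in the sources used here, so reads of EEF1A1 may be among the counts of EEF1A1P5, and their number is unknown. EEF1A2 had no such windows in common with EEF1A1. Another copy, EEF1A1P6, lies at 22510616 to 22511999 on chromosome 7, within the span of STEAP1B, with 7 mismatches and 1 gap against EEF1A1. It shares T294C with EEF1A1P5 and also carries A288G, which falls in the same window.

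EEF1A1P6 around 294: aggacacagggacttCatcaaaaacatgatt

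The siControl libraries summed to 53368158 and 46271037 counts, and the siLOC730101 libraries to 40885634 and 39213498. Counts were scaled to a common library size as CPM, the usual measure relative to the library total, with a correction for composition by the TMM method of edgeR. The 8 genes took between 1.86% and 2.0% of the counts in every library. LOC730101 was read as ENSG00000216775, the gene of the table that overlaps its place in RefSeq, and it fell by 66.0% after siLOC730101, from a mean of 49.0 to 16.7 CPM, which edgeR called with an adjusted p of 4.34e-06. Each of 8 markers of luminal prostate epithelium, such as KLK3 and KRT8, had at least 14266 counts in every library. Of 12 markers of stroma, leukocytes, endothelium and basal epithelium, 5 had 0 counts in all libraries, and COL1A1 had the most, with 797 in siControl replicate 1. Nothing in the labels states that the libraries came from separate cultures, so standard errors cover the spread between these libraries only. In bulk RNA, fewer cells that express a gene and less of its RNA per cell cannot be told apart.

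Of the 8 genes, EEF1A1P5 differed most between the groups on the log2 scale. Its counts were 7160 and 6663 with siControl against 2873 and 3112 with siLOC730101. In CPM these were 132.5 and 142.4 in siControl and 69.9 and 82.0 in siLOC730101. Both siLOC730101 libraries lay below both siControl libraries. The mean was 137.4 ± 7.0 CPM (SD, n = 2) in siControl and 75.9 ± 8.51 CPM (SD, n = 2) in siLOC730101, where it fell by 44.7%. The log2 fold change was -0.86 with a standard error of 0.092. Omitting 1 library at a time gave -0.98 to -0.74. Of the 7 genes that passed the expression filter, EEF1A1P5 was the single gene called by edgeR's quasi-likelihood test at an adjusted p of 0.05, where 0.284% of all 19349 genes tested were called. The genes were chosen with this comparison known, and EEF1A1P5 by its lower counts, so nothing is read from its call or from the count.

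EEF1A1 itself, the parent of the copy, differed by less than the SD between libraries. It lies on chromosome 6 at 73489308 to 73525587, on the minus strand. Its counts were 540666 and 507664 with siControl against 413429 and 429496 with siLOC730101, or 10002 and 10846 CPM against 10063 and 11313 CPM. The groups overlapped, with a log2 fold change of 0.036 and a standard error of 0.066. Its direction turned with scaling by library size only, to -0.0029, and without siControl replicate 1 (-0.020) or siLOC730101 replicate 2 (-0.053). The sum of EEF1A1 and its 42 copies had a log2 fold change of 0.026 with a standard error of 0.066. The difference in EEF1A1P5 amounted to 61.5 CPM, or 0.590% of EEF1A1 in siControl, while the SD of EEF1A1 was 597 CPM between the siControl libraries and 884 CPM between the siLOC730101 libraries. A change of EEF1A1 by that amount was not detectable in these libraries.

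Within a library, the copy can be set against its parent without any scaling. There were 13.2 and 13.1 counts on EEF1A1P5 per 1000 counts on EEF1A1 in siControl, and 6.95 and 7.25 in siLOC730101. The means were 13.2 ± 0.084 (SD, n = 2) and 7.10 ± 0.21 (SD, n = 2). The groups did not overlap, with a ratio of 0.538 between the means, and of 0.527 to 0.55 when 1 library at a time was omitted. The ratio rests on the EEF1A1P5 counts by which the gene was chosen, so it is no separate evidence of a difference. With 2 libraries against 2, an exact permutation test cannot give a two-sided p below 0.333.

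**Figure D1:**
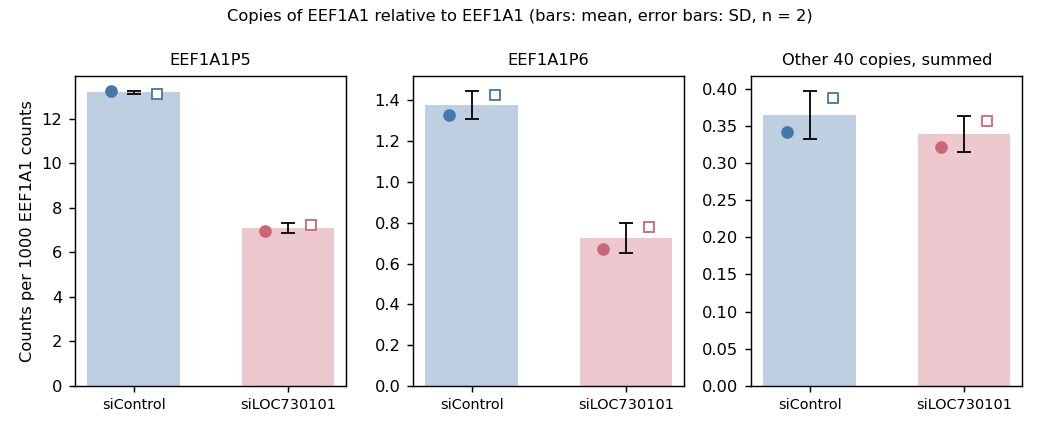
Counts on EEF1A1P5, on EEF1A1P6 and on the other 40 copies together, each per 1000 counts on EEF1A1 in the same library, for siControl and siLOC730101 (bars, mean; error bars, SD; circles, replicate 1; squares, replicate 2; each panel has its own axis from 0). The means were 13.2 and 7.10 for EEF1A1P5 and 1.38 and 0.725 for EEF1A1P6, while the other 40 copies lay between 0.322 and 0.388 in all 4 libraries.

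EEF1A1P6, the copy with the second highest count, showed a difference of like size. Its counts were 719 and 725 with siControl against 278 and 334 with siLOC730101, and per 1000 EEF1A1 counts it had 1.38 ± 0.069 (SD, n = 2) and 0.725 ± 0.074 (SD, n = 2). Both siLOC730101 libraries lay below both siControl libraries. With a log2 fold change of -0.89 and a standard error of 0.18, it missed the threshold in edgeR (adjusted p = 0.0554). Under 12 other settings of edgeR the adjusted p lay between 8.2e-05 and 0.0600, and 10 of these were under 0.05, while DESeq2 gave no adjusted p for it. EEF1A1P5 had 9.96 and 9.19 times the counts of EEF1A1P6 in siControl and 10.3 and 9.32 times in siLOC730101, so that the ratio between the copies did not separate the groups. Of the windows of 100 bases in EEF1A1P6, 738 of 1285 (57.4%) occur without a mismatch in the EEF1A1 transcript, so its counts are uncertain too. How far reads common to EEF1A1 and these copies shaped the likeness was not tested.

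The remaining 40 copies of EEF1A1 together had counts of 185 and 197 with siControl against 133 and 153 with siLOC730101. Per 1000 EEF1A1 counts this was 0.342 and 0.388 against 0.322 and 0.356, with overlap between the groups. In all, 20 of the 42 copies had a count in some library and 8 passed the expression filter. Apart from EEF1A1P5 and EEF1A1P6, the copies that passed were EEF1A1P4, EEF1A1P11, EEF1A1P13, EEF1A1P19, EEF1A1P24 and EEF1A1P25, with at most 59 counts in a library and log2 fold changes from -0.34 to 1.75, each with a standard error of at least 0.48. The other genes gave few reads to copies. The 8 copies of EEF1B2 together had 46 to 97 counts in a library, of which EEF1B2P3 had 38 to 48, and EEF1B2P3 had a log2 fold change of 0.19 (standard error 0.52). The 8 copies of EEF1D, the 8 of EEF1G and the 15 of TPT1 had at most 16 counts per parent and library, and the table had 0 copies named after EEF2.

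EEF1A2, the paralogue known from muscle and neurons, was well covered in these prostate cancer cells. It lies on chromosome 20 at 63488013 to 63499239, on the minus strand. Its counts were 70975 and 66559 with siControl against 59602 and 58393 with siLOC730101, or 1313 and 1422 CPM against 1451 and 1538 CPM. Both siLOC730101 libraries were above both siControl libraries by a narrow gap. The log2 fold change was 0.13 with a standard error of 0.069, and it stayed above 0 under all 13 alternatives, at 0.073 to 0.19. For 100 counts on EEF1A1 there were 13.1 on EEF1A2 in both siControl libraries and 14.4 and 13.6 in the siLOC730101 libraries.

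EEF2, the translocation factor, lies on chromosome 19 at 3976056 to 3985463, on the minus strand. Its counts were 322690 and 291274 with siControl against 248481 and 247016 with siLOC730101. In CPM this was 5969 and 6223 against 6048 and 6506, and the groups overlapped. The log2 fold change was 0.042 with a standard error of 0.061, and it turned to -0.014 without siLOC730101 replicate 2. EEF2 and EEF1A1, which work at successive steps of the cycle, both differed by less than the SD between the siLOC730101 libraries.

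EEF1B2, the subunit that recharges eEF1A, had the highest log2 fold change of the 7 genes. It lies on chromosome 2 at 206159585 to 206162928, on the plus strand. Its counts were 13914 and 13776 with siControl against 12987 and 13522 with siLOC730101, or 257.4 and 294.3 CPM against 316.1 and 356.2 CPM. Both siLOC730101 libraries lay above both siControl libraries. The log2 fold change was 0.29 with a standard error of 0.085, and 0.19 to 0.39 with 1 library at a time omitted. Replicates within a group differed by 0.19 in siControl and 0.17 in siLOC730101 on the log2 scale, less than the difference between the groups.

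TPT1 encodes an abundant growth-related protein, also called TCTP, that binds the elongation machinery. The gene lies on chromosome 13 at 45333471 to 45341284, on the minus strand. Its counts were 36114 and 31931 with siControl against 29510 and 32468 with siLOC730101, or 668.1 and 682.2 CPM against 718.3 and 855.2 CPM. The siLOC730101 libraries were both higher, but siLOC730101 replicate 2 set the size of the difference. The log2 fold change was 0.22 with a standard error of 0.081. Omitting siLOC730101 replicate 2 gave 0.087, and omitting replicate 1 of that group gave 0.35.

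Of the 7 genes tested, 3 had both siLOC730101 libraries above both siControl libraries (EEF1A2, EEF1B2 and TPT1), where 21.3% of all genes tested did, and EEF1A1P5 had both below, where 20.5% of all genes did. EEF1A1, EEF2 and EEF1D overlapped. The median log2 fold change of the 7 genes was 0.085, against -0.0021 over all genes tested. The libraries of a group shifted these genes together: replicate 2 was above replicate 1 for 7 of 7 genes in siControl, by 2.11% to 15.6%, and for 7 of 7 genes in siLOC730101, by 6.02% to 19.1%. Over all genes tested, replicate 2 was the higher for 49.7% in siControl and 51.6% in siLOC730101. The 7 values thus share a shift between libraries, whose part in the fold changes was not tested.

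**Figure D2:**
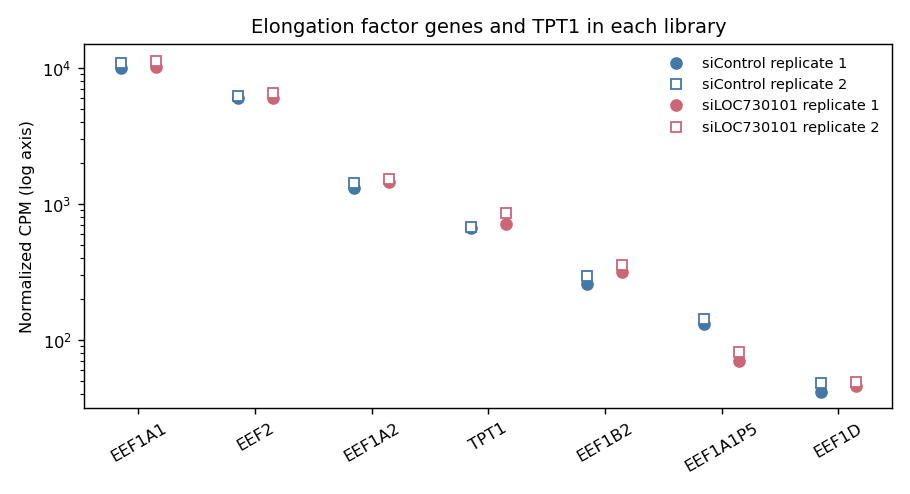
Normalized CPM on a log axis of the 7 genes that passed the expression filter in the 4 libraries (blue, siControl; red, siLOC730101; filled circles, replicate 1; open squares, replicate 2). EEF1A1P5 lay at 132.5 and 142.4 CPM in siControl and at 69.9 and 82.0 CPM in siLOC730101, while the groups of EEF1A1, EEF2 and EEF1D overlapped.

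EEF1G, the third subunit of the eEF1B complex, was listed with 0 counts in each of the 4 libraries, and it did not pass the expression filter. A count of 0 allows up to 3 counts in a library, which is 0.0562 to 0.0765 CPM. The 0 cannot be read as a lack of its RNA. The gene lies on chromosome 11 from 62559596 to 62574086, and 2632 of its 2639 exon bases (99.7%) are also exon bases of ENSG00000255508, a longer gene on the same strand. By default featureCounts leaves out a read that lies on exons of more than 1 gene, and the command in the header holds no option to keep such reads. ENSG00000255508 itself had 2 counts in siControl replicate 1, 2 in siLOC730101 replicate 2 and 0 in the other libraries. The part of the shared exons in the 0 of EEF1G was not tested.

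EEF1D, a further exchange subunit, shares exons as well. It lies on chromosome 8 at 143579697 to 143599541, on the minus strand. Its counts were 2260 and 2263 with siControl against 1898 and 1876 with siLOC730101, or 41.8 and 48.3 CPM against 46.2 and 49.4 CPM. The groups overlapped, and the log2 fold change was 0.085 with a standard error of 0.10, turning to -0.015 without siControl replicate 1. Among its exon bases, 34.0% are shared with other genes, and among its 1085 core bases, which stand in at least 50% as many exon entries as the most used base, 65.7% are shared. The main partner, ENSG00000279605, lies on the opposite strand with 0 counts in every library, and the command has no strand option. For TPT1, 30.7% of 814 core bases are shared with ENSG00000273149 on the opposite strand, also with 0 counts. EEF1A1, EEF1A1P5, EEF1A2, EEF1B2 and EEF2 shared 0 core bases with other genes. The small nucleolar RNA genes SNORA41 in EEF1B2, SNORD37 in EEF2 and SNORA31 in TPT1 overlap their hosts outside the core bases and had at most 6 counts in a library.

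**Figure D3:**
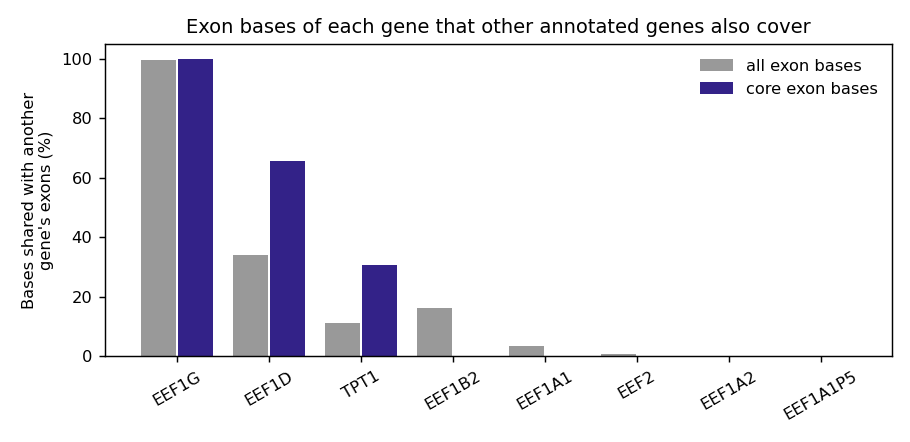
Share of the exon bases (grey) and of the core exon bases (violet) of each of the 8 genes that are also exon bases of another gene in the table, in percent. EEF1G reached 99.7% and 100%, EEF1D 34.0% and 65.7%, and TPT1 11.1% and 30.7%, while the other 5 genes shared 0 core bases.

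Levels of the genes can be set side by side only per length. In siControl, EEF2 had 1516 ± 44.6 CPM per kilobase of exon (SD, n = 2) and EEF1A1 had 1036 ± 59.3. EEF1A2 followed with 283.4 ± 16.0, EEF1B2 with 144.1 ± 13.6, EEF1A1P5 with 98.9 ± 5.04, TPT1 with 94.0 ± 1.39 and EEF1D with 4.80 ± 0.49. EEF1A1P5 and TPT1 differed by less than the SD of EEF1A1P5. The order in siLOC730101 was the same except that TPT1, at 109.5 ± 13.5, stood above EEF1A1P5, at 54.7 ± 6.13. The order rests on the length that is used, because the exon length of the table joins all annotated exons, 10063 bases for EEF1A1. Per kilobase of core exon, a length chosen after seeing the data, EEF1A1 stood first in siControl with 6029 ± 345 and EEF2 second with 4361 ± 128, and TPT1, at 829.4 ± 12.3, stood above EEF1B2 and EEF1A1P5. EEF1D and TPT1 have shared core exons, and EEF1A1P5 shares 69.0% of its windows of 100 bases with EEF1A1. How far this moved the places of these genes was not tested. EEF1G, at 0 counts, was not placed.

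The sequence at the start of the transcript was not used to choose the genes. RefSeq promoter windows (GRCh38.p14) were found for 5 of the 8 genes. A TOP-like start, a C followed by at least 4 bases that are each C or T, beginning within 5 bases of the annotated start on the coding strand, was found for 4 of these 5 genes, EEF1A1, EEF1B2, EEF2 and TPT1, and not for EEF1G at its listed start. Counted by gene in the same way, 6886 of 27305 genes (25.2%) had it, and counted by window, 21.1% of 35116 windows. Of the 2 listed starts of EEF1B2, 1 carried it. In the windows below, which run from 10 bases before the start over 30 bases, the motif is in capitals.

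EEF1A1 start: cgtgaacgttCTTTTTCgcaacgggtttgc
EEF1B2 start: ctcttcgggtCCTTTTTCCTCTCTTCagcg
EEF2 start: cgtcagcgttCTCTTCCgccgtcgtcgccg
TPT1 start: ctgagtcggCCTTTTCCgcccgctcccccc

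EEF1B2 and TPT1, with the motif, had log2 fold changes of 0.29 and 0.22, while EEF1A1 and EEF2, also with the motif, had 0.036 and 0.042. No gene without the motif could be set beside them, since EEF1G had 0 counts. EEF1A1P5, which begins at the start codon of EEF1A1, does not hold the start of the parent mRNA in its annotated exon.

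The other genes of the pathway were taken from a list of 40 genes, all of which were tested. None passed edgeR's quasi-likelihood test at an adjusted p of 0.05 (0 of 40, and 0 in DESeq2), while EIF5A, SECISBP2 and EEF2K, 3 in all, had an unadjusted p under 0.05. Over all genes, 55 of 19349 were called and 2094 had an unadjusted p under 0.05. The median log2 fold change was 0.075, with 28 genes above 0 and 12 below, where 9602 of all 19349 genes were above 0. Among 23 genes of cytosolic elongation and its modifiers, EEF2K, the kinase that inactivates eEF2, had the highest value. It had 14.5 and 19.8 CPM in siControl and 25.8 and 23.9 CPM in siLOC730101. EEF2K was thus higher without overlap between the groups, as were 21.3% of all genes tested. With a log2 fold change of 0.53 and a standard error of 0.15, it missed the threshold in edgeR (adjusted p = 0.154), and 13 other settings of edgeR or DESeq2 gave 0.0030 to 0.487, of which 4 were under 0.05. Leaving out siControl replicate 1 brought EEF2K to 0.33 on the log2 scale, and leaving out siControl replicate 2 brought it to 0.77. EIF5AL1, a copy of the elongation factor gene EIF5A, had the lowest value, -0.51 (standard error 0.72), with 14 to 34 counts in a library. EIF5A itself, whose product helps ribosomes past difficult sequences, stood at 0.19 with a standard error of 0.084 (adjusted p = 0.432, edgeR). The 4 lysine methyltransferases EEF1AKMT1, EEF1AKMT2, EEF1AKMT3 and EEF1AKMT4, which modify eEF1A, had log2 fold changes from 0.19 to 0.26, each with an adjusted p of at least 0.599 in edgeR. METTL13, also listed among the modifiers, stood lower, at 0.12 with a standard error of 0.099 and overlap between the groups.

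Among 8 genes of termination, recycling and rescue, the log2 fold changes ran from -0.042 for ABCE1, which splits ribosomes after termination, to 0.21 for GSPT2, a form of release factor eRF3. ETF1, the release factor that reads stop codons, had 243.1 and 254.4 CPM in siControl and 244.6 and 255.9 CPM in siLOC730101, a log2 fold change of 0.0085. Among 9 genes of mitochondrial elongation and termination, they ran from -0.27 for MTRF1, a mitochondrial release factor, to 0.14 for MRRF, which recycles mitochondrial ribosomes. TUFM, the mitochondrial counterpart of eEF1A, had 272.8 and 267.7 CPM in siControl and 287.5 and 308.1 CPM in siLOC730101, which is 0.14 on the log2 scale with a standard error of 0.073 (adjusted p = 0.530, edgeR).

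Ribosomal protein genes and their processed pseudogenes are the genes most like these in function and in having many copies. Of 87 ribosomal protein genes tested, 84 had a log2 fold change above 0 and 9 passed the test, all 9 higher, with a median of 0.26. Of 116 ribosomal protein pseudogenes tested, 78 were below 0 and 1 passed the test, with a median of -0.28. Over all 19349 genes tested, 9602 were above 0 and 9747 below, 41 were called higher and 14 lower, and the median was -0.0021. Beside them, the log2 fold changes were 0.29 for EEF1B2 and 0.22 for TPT1, and -0.86 for EEF1A1P5 and -0.89 for EEF1A1P6. These groups were set by name alone, and whether each name in the pseudogene group belongs to a pseudogene was not checked. The difference between genes and pseudogenes was not tested.

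**Figure D4:**
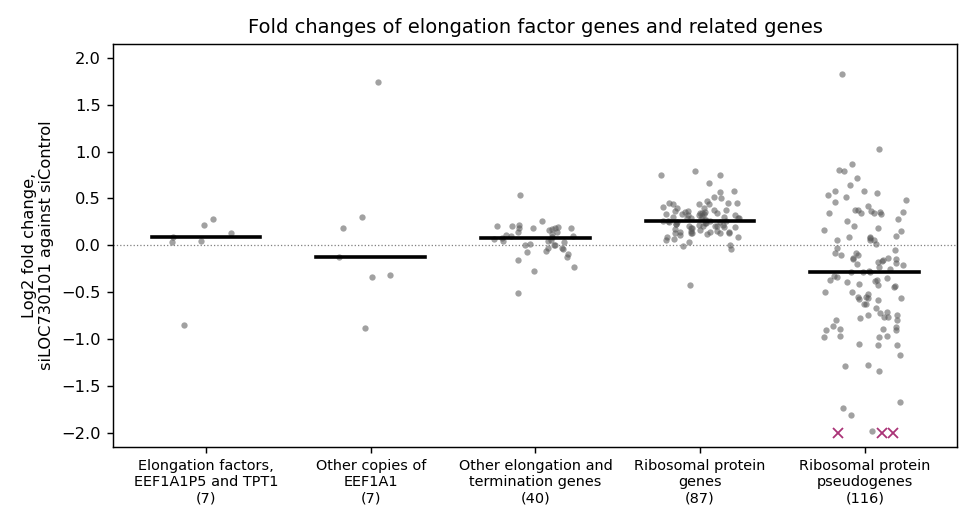
Log2 fold changes of siLOC730101 against siControl for single genes (points) with the median of each group (line); crosses at the lower edge stand for 3 pseudogenes beyond the axis. The median was 0.085 for the 7 elongation factor genes with EEF1A1P5 and TPT1, -0.12 for 7 other copies of EEF1A1, 0.075 for 40 other genes of elongation and termination, 0.26 for 87 ribosomal protein genes and -0.28 for 116 ribosomal protein pseudogenes.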

How the data were processed

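RNA of 4 libraries of LNCaP-DaroR cells, 2 siControl and 2 siLOC730101, was analysed from 1 table of counts. Per the file headers the deposited counts are raw counts of featureCounts 2.0.1 on exons, summed by gene name with hg38 and gencode version 41, without normalization and with no paired-end, strand, multi-mapping or overlap option in the command. Per the methods of the study the reads were trimmed with Trim-galore and aligned with STAR to hg19, while the labels name BWA and hg38. Where a gene had 1 to 20 counts, the count was even in 66.0% to 70.1% of cases. Whether mates were counted apart was not tested, and halved counts were an alternative. Library totals were 39213498 to 53368158 counts.

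Genes were filtered with filterByExpr, which left 19349, scaled with TMM factors between 0.969 and 1.01, and tested in edgeR 4.0.16 (R 4.3.3) with glmQLFit (legacy method, no robust moderation), with condition as the only term. P-values were adjusted by Benjamini-Hochberg across the 19349 genes. The script was tested on simulated data. DESeq2 1.42.0 was an alternative. The other alternatives were DESeq2 size factors, upper-quartile factors, library size only, no filter beyond 1 count, other quasi-likelihood settings, the replicate number as a block and leaving out each library. The count interval for a 0 covers counting error only.

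The genes and lists were chosen with earlier results of these data known. Named are the 8 genes, their copies by name pattern, overlapping genes, the extremes of each list and any of its genes that were called, and the 3 genes nearest to EEF1A1P5. ETF1, TUFM, EIF5A, SECISBP2, METTL13 and the methyltransferases were named after their values were seen. Transcripts came from GENCODE 44 lifted to GRCh37, by name and without coordinates, and were aligned with Biopython 1.88 (Python 3.11.15). A further luminal marker is not reported here.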

Additional observations from a re-analysis of the deposited data

How the results depend on the processing

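The log2 fold change of EEF1A1P5 kept its direction under all 13 alternatives, from -0.98 to -0.74. Its ratio to EEF1A1 relative to siControl stayed at 0.527 to 0.55. The gene was chosen by its lower counts in these same libraries, so the kept direction adds no support. With the whole EEF1A1 family as the denominator the ratio was 0.542. EEF1A1 held 540666 of 548730 family counts in siControl replicate 1 and 413429 of 416713 in siLOC730101 replicate 1. This denominator could therefore hardly change the ratio. Over all genes, 41 were higher and 14 lower after siLOC730101 at an adjusted p under 0.05 in edgeR. Without a filter beyond 1 count it was 324 and 113, with the legacy method off 87 and 24, with halved counts 112 and 34, and with DESeq2 234 and 63; with library size only, 35 were lower. Leaving out each library gave 77 to 923 higher and 26 to 272 lower, with 117 and 49 without siControl replicate 1, 111 and 26 without siControl replicate 2, 923 and 272 without siLOC730101 replicate 1, and 77 and 60 without siLOC730101 replicate 2. Of the 40 other genes of the pathway, 1 was called instead of 0 without a filter and with the replicate block, and 0 to 1 when each library was left out. ABCE1, at -0.042, turned to 0.0031 without siLOC730101 replicate 1 and lay between -0.081 and 0.0031 over the libraries left out. The cause of these changes was not tested. Over all genes tested, same-numbered libraries did not deviate together (correlation 0.015), although replicate 2 was the higher in both groups for the 7 elongation genes. By the rule over all genes the numbers were not taken as pairs; the replicate block gave 485 higher and 167 lower genes, an adjusted p of 8.2e-05 in edgeR for EEF1A1P6, and -0.86 for EEF1A1P5. How far the shared sequence of EEF1A1 and its copies, or the shared exons of EEF1G and EEF1D, moved these values was not tested. At this depth a count of 0 allows up to 0.0562 to 0.0765 CPM.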

Other observations

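The genes whose pattern over the 4 libraries was nearest to that of EEF1A1P5 were ENSG00000235296, ENSG00000261606 and RPL7P9, by the Euclidean distance of centred log2(CPM + 0.5) values, at 0.044, 0.072 and 0.074, where the median over 19342 genes was 0.917. RPL7P9, a pseudogene of a ribosomal protein gene, had counts of 379 and 374 with siControl against 140 and 162 with siLOC730101. It stood at -0.97 on the log2 scale with a standard error of 0.23 (adjusted p = 0.0974, edgeR), and the alternatives in edgeR gave an adjusted p of 0.0034 to 0.182. ENSG00000235296 had 36 and 33 counts against 4 and 8, and ENSG00000261606 had 24 and 24 against 0 and 2, so that both owe their place to the added 0.5 CPM, which shrinks the differences of weak genes. EEF1A1P6 ranked 10 by this distance, at 0.119. These distances describe 4 libraries that also gave the fold changes, and nothing is read from them about shared control.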
